A study of Mus musculus with 34 samples.

Results

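The 10 proximal protocadherin beta genes of the mouse, Pcdhb2 to Pcdhb11, are described here across stem cells, neural progenitors and neurons with altered dosage of the 7qF3 region. They were chosen by name and position: they are the gene entries from Pcdhb2 to Pcdhb11 in the count table, taken in their order along the cluster. They make up 10 of 29876 gene entries and 10 of the 22 protocadherin beta genes; Pcdhb1 lies before them and the 11 distal genes, Pcdhb12 to Pcdhb22, lie after them. The study measured total RNA in 28 libraries of mouse cells whose 7qF3 region, the counterpart of human 16p11.2, was deleted, duplicated and deleted, or intact. Its title links contacts of this locus with other chromosomes to protocadherin expression. The contact maps (Hi-C, 6 samples) are not analysed here.

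All cells are labelled with the C57BL/6N background strain and with a 129Sv genotype. Deletion cells (df/+) carried a heterozygous deletion of 7qF3. Duplication-deletion cells (df/dp) carried both the deletion and the duplication, and control cells were +/+. The cell lines came from another laboratory, per the labels. Embryonic stem cells (ESCs) were grown in serum with LIF, and there were 3 deletion, 3 duplication-deletion and 3 control libraries. Neural progenitor cells (NPCs) were harvested at day 5 of differentiation towards the ventral midbrain, by way of epiblast stem cells, and gave 3 deletion, 3 duplication-deletion and 5 control libraries. Immature dopaminergic-lineage neurons were harvested at day 16 and gave 2, 2 and 4 libraries in the same order. The labels do not say how many clones or separate differentiations stand behind a group, so p-values measure the spread between these libraries, which may in part be technical.

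Clustered protocadherins are cadherin-like membrane proteins that bind to the same isoform on a facing cell, and neurons use them to tell their own branches from those of other neurons. Each beta gene has its own promoter and a single coding exon, and the beta genes lack the shared constant exons of the alpha and gamma clusters. Each neuron expresses a small, largely random set of isoforms; promoter choice is known to involve DNA methylation, CTCF and cohesin, and the beta genes depend on enhancers that lie beyond the gamma cluster. All 10 members encode proteins of this one kind, so they are taken below by position.

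On chromosome 18 of mm9, the authors' build, 9 members had a position in the authors' deposited table, from Pcdhb2 (chr18:37454494-37457268) and Pcdhb3 (chr18:37460453-37464239) at one end to Pcdhb9 (chr18:37560509-37563563) and Pcdhb10 (chr18:37571328-37574168) at the other. These 9 gene models were 2319 to 3787 bp long and spanned 119675 bp. The widest gap between listed neighbours was 43244 bp, between Pcdhb8 and Pcdhb9. No mm9 position or length was used for Pcdhb11, which follows Pcdhb10 in the RefSeq gene order of GRCm38.p6; a pseudogene, Gm18529, lies between Pcdhb3 and Pcdhb4 in that order.

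Total counts per library, spike-ins left out, ran from 5578135 to 69010081 in ESCs, from 19311958 to 78814032 in NPCs and from 41892740 to 56031937 in neurons. Levels are given as CPM, a gene's counts scaled to a fixed library total, with the totals first corrected by TMM, a normalisation that trims the genes that differ most between libraries. Expected counts split a read between copies it cannot tell apart, and 63 of the 280 member values were not whole within 0.004; Pcdhb5 had 13 such values and Pcdhb7 had 11 of 28 each, while Pcdhb2 had 0. Reads of near-identical members may therefore have been split between them. In bulk samples, fewer cells of a type and less RNA per cell cannot be told apart. The median gene of the 7qF3 interval stood, in percent of the control mean of its stage, at 39.9 to 51.2 in deletion ESCs, 48.7 to 81.8 in deletion NPCs and 41.6 to 62.0 in deletion neurons. In duplication-deletion libraries it stood at 81.1 to 125 in ESCs, 68.1 to 127 in NPCs and 83.3 to 86.4 in neurons, and control libraries ran from 74.5 to 120. Pou5f1, which marks pluripotent cells, ran from 175 to 364 CPM in ESCs and reached at most 0.634 CPM at the later stages. Nes, an intermediate filament of neural progenitors, averaged 51.6 ± 21.6 CPM in control neurons and 660 ± 157 CPM in control NPCs (SD, n = 4 and 5). Th, the rate-limiting enzyme of dopamine synthesis, averaged 72.8 ± 25.5 CPM in control neurons and 3.11 ± 4.44 CPM in control NPCs.

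In ESCs the proximal beta genes were close to silent. All 9 ESC libraries together held 117 counts over the 10 members, with at most 18 counts for a gene in a library. Pcdhb5 and Pcdhb10 had 0 counts in all 9 libraries. Pcdhb3 had the most, 35 counts: 0 over the deletion libraries, 13 in a single duplication-deletion library and 22 over the control libraries. The summed level of the 10 members was 0 to 0.631 CPM in deletion, 0.161 to 0.489 CPM in duplication-deletion and 0.117 to 0.904 CPM in control ESCs, and these ranges overlap. A gene with 0 counts could still have been present at up to 0.0484 CPM in deletion, 0.0265 CPM in duplication-deletion and 0.0312 CPM in control ESCs (3 counts over the group, counting error only). None of the 10 passed the filter on low counts in ESCs (0 of 10), so no genotype was tested there; without that filter 8 could be fitted, 0 passed edgeR's quasi-likelihood test at an adjusted p of 0.05 and 0 had an unadjusted p below 0.05 in any of the 3 comparisons. Among the genes that did pass the filter, an unadjusted p below 0.05 was reached by 1.26% in deletion over control, 0.31% in duplication-deletion over control and 0.996% in deletion over duplication-deletion ESCs.

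Control cells gained expression of most proximal beta genes at both steps of differentiation. From ESCs to NPCs, 8 of 10 members rose (edgeR quasi-likelihood test, Benjamini-Hochberg adjusted p below 0.05 over 18365 genes), against 21.0% of all genes tested. Pcdhb11 had 1039 counts in 5 control NPC libraries and 3 counts in 3 control ESC libraries, a ratio of 120 per scaled read (exact 95% binomial interval 41.0 to 584; adjusted p = 0.0001). Pcdhb6 had 212 and 3 counts in the same groups, a ratio of 24.5 (8.28 to 120), and Pcdhb9 had 52 counts and 1 count, a ratio of 18.05 (3.10 to 726). Pcdhb4, Pcdhb5, Pcdhb8 and Pcdhb10 had 0 counts in control ESCs, so their rise is a lower bound. Against 3 counts over the group, Pcdhb5 was at least 31.1-fold higher in NPCs, Pcdhb10 at least 22.4-fold, Pcdhb4 at least 18.7-fold and Pcdhb8 at least 15.3-fold. These bounds and the binomial intervals pool the reads of a group and cover counting error only, not the spread between libraries. Single control NPC libraries had Pcdhb8 at 0.0772 to 1.10 CPM, against a floor of 0.0312 CPM in control ESCs. Pcdhb7 was higher by 3.43 ± 1.12 (log2, SE; adjusted p = 0.0238). Pcdhb2, at 3.63 ± 1.58, and Pcdhb3, at 0.85 ± 0.84, did not pass (adjusted p = 0.082 and 0.447 by the same edgeR test).

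Those calls differed in how much they owed to single libraries and to the tool. All 7 control ESC counts of Pcdhb7 and all 3 of Pcdhb6 came from control ESC replicate 1, so without it both had 0 counts in control ESCs and their fitted folds had no measured level to rest on. The call of Pcdhb7 was lost without control ESC replicate 2, control ESC replicate 3 or control NPC replicate 3 (edgeR adjusted p = 0.0725, 0.0683 and 0.0536). That of Pcdhb9 was lost without control ESC replicate 1, control ESC replicate 2 or control NPC replicate 3 (edgeR adjusted p = 0.112, 0.0995 and 0.0584), and by limma-voom (adjusted p = 0.22). Pcdhb2 passed when control NPC replicate 2, which had 0 counts of it, was left out (edgeR adjusted p = 0.0274), and by DESeq2 with all libraries (adjusted p = 0.0235). In 6 members every control NPC library stood above every control ESC library, which 21.5% of all genes did; Pcdhb2, Pcdhb3, Pcdhb7 and Pcdhb9 overlapped.

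From NPCs to neurons, 8 of 10 members rose in control cells by the same edgeR test, against 23.2% of all genes tested. They were not the same 8 as before: Pcdhb3 passed only at this step and Pcdhb8 only from ESCs to NPCs. The median log2 fold change over the 10 members was 2.36, against 0.10 over all 18365 genes. Pcdhb9 had the largest fitted rise of the 10. It was at 4.30, 6.89, 6.88 and 5.01 CPM in control neurons, against 0.134, 0, 0.365, 0.256 and 0.232 CPM in control NPCs, a difference of 4.89 ± 0.83 (log2, SE; edgeR adjusted p = 0.000324). The lowest neuron library lay far above the highest NPC library. Control neuron libraries also held markers of other cells. Summed neuron markers averaged 1396 ± 247 and 368 ± 93.0 CPM in control neurons and control NPCs (SD, n = 4 and 5). Fibroblast or mesenchymal markers averaged 1397 ± 606 and 315 ± 147 CPM, and astrocyte markers 482 ± 70.3 and 61.8 ± 32.6 CPM. Neural progenitor, midbrain floor plate and neural crest markers had lower means in neurons. The part of these markers in the rise of the members was not tested.

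Pcdhb10 was at 10.4, 8.62, 7.36 and 3.84 CPM in control neurons, against 0.524, 0.399, 1.23, 0.965 and 0.193 CPM in control NPCs (log2 difference 3.53 ± 0.58, edgeR adjusted p = 0.000409). Pcdhb4 was at 5.99, 5.15, 5.17 and 4.16 CPM in control neurons, against 0.390, 0.364, 0.531, 1.24 and 0.540 CPM in control NPCs (3.09 ± 0.51, edgeR adjusted p = 0.000446). Pcdhb7, Pcdhb3, Pcdhb11, Pcdhb6 and Pcdhb5 rose by 2.90 ± 0.82, 2.54 ± 0.74, 2.18 ± 0.55, 2.13 ± 0.71 and 2.11 ± 0.55 on the log2 scale (edgeR adjusted p = 0.011, 0.0128, 0.00554, 0.0253 and 0.00801). Pcdhb8, at 1.85 ± 0.82, and Pcdhb2, at 1.20 ± 1.15, did not pass the edgeR test (adjusted p = 0.0891 and 0.429). Other tools called them: limma-voom gave an adjusted p of 0.00863 for Pcdhb8 and 0.0485 for Pcdhb2, and DESeq2 gave 0.0487 for Pcdhb8.

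In 9 members, all but Pcdhb2, every control neuron library stood above every control NPC library, which held for 20.6% of all genes. The call of Pcdhb6 was lost when any of 4 libraries was left out: its edgeR adjusted p, 0.0253 with all libraries, was 0.0506 without control NPC replicate 2, 0.0566 without control NPC replicate 5, 0.0538 without control neuron replicate 1 and 0.0581 without control neuron replicate 3. Pcdhb8 passed without control NPC replicate 4 (edgeR adjusted p = 0.0446).

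**Figure D1:**
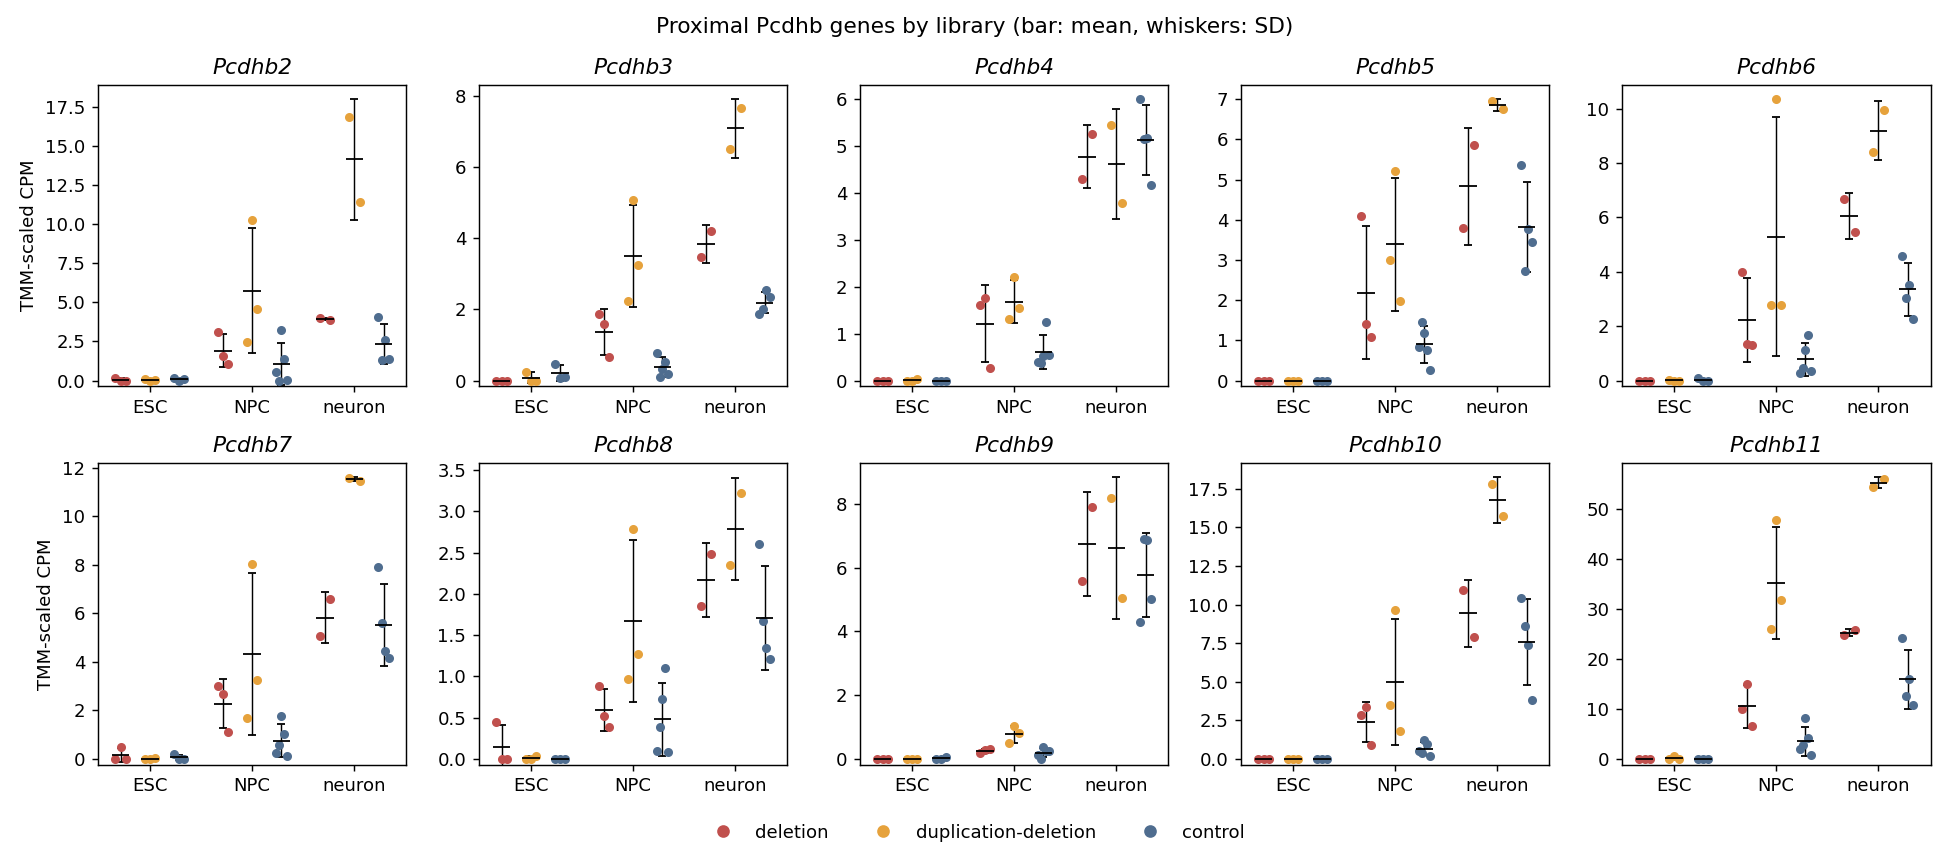
Level of each proximal beta gene in every library (vertical axes, TMM-scaled CPM, a scale of its own per gene), by stage and, within a stage, deletion, duplication-deletion and control from left to right; points are libraries, bars means and whiskers SD. ESC libraries lie at or near 0 in all 10 panels, and in the Pcdhb11 panel the duplication-deletion neurons stand highest, at 54.4 and 56.0 CPM.

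Per kilobase of gene model, which allows levels of different genes to be compared, the 9 members with a length were ordered as follows in control neurons. Pcdhb10 led with 2.66 ± 0.98 CPM per kb (SD, n = 4), followed by Pcdhb9 (1.89 ± 0.43), Pcdhb7 (1.58 ± 0.48), Pcdhb6 (1.45 ± 0.42), Pcdhb4 (1.38 ± 0.20), Pcdhb5 (1.08 ± 0.32), Pcdhb2 (0.848 ± 0.47) and Pcdhb8 (0.728 ± 0.268). Pcdhb3 was last, with 0.578 ± 0.0799 CPM per kb. Each gene in this order overlapped the next over the 4 libraries, so no pair of neighbours was separated beyond the spread. The first and the last did not overlap: Pcdhb10 was at least at 1.35 and Pcdhb3 at most at 0.669 CPM per kb.

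In control NPCs the order was another one. Pcdhb2 came first with 0.373 ± 0.484 CPM per kb (SD, n = 5) and Pcdhb6 second with 0.336 ± 0.258, and Pcdhb9 came last with 0.0646 ± 0.0450. Pcdhb9 was last of the 9 in NPCs of all 3 genotypes and second in control neurons. The NPC values rest on few reads: Pcdhb9 had 33 counts over the 3 deletion, 105 over the 3 duplication-deletion and 52 over the 5 control NPC libraries.

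**Figure D2:**
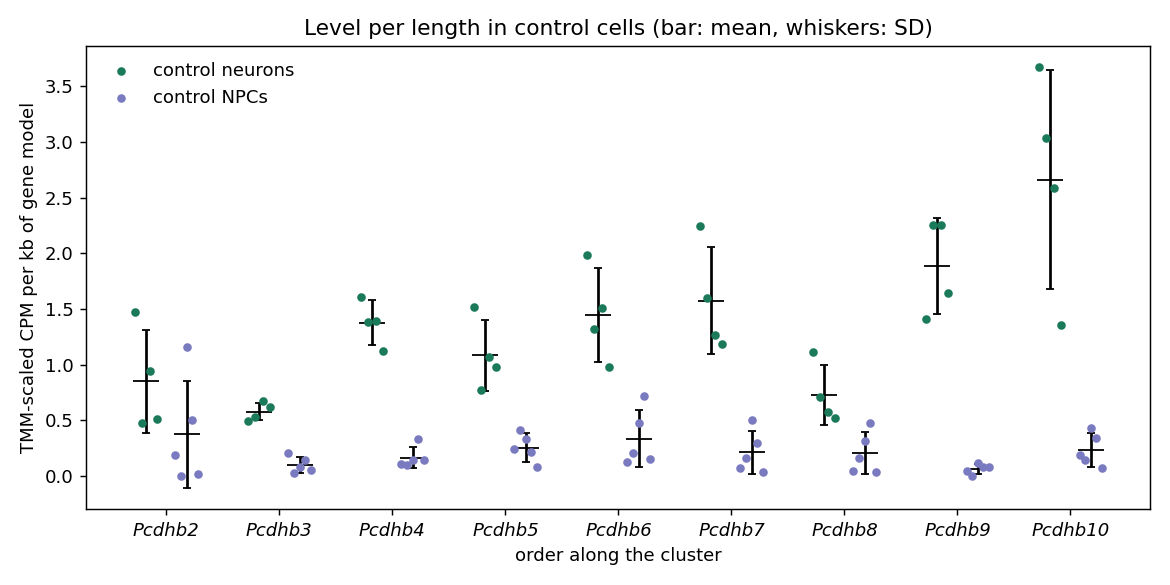
Level per kilobase of gene model (vertical axis, TMM-scaled CPM per kb) of the 9 members with a length, in order along the cluster, in control neurons and control NPCs; points are libraries, bars means and whiskers SD. Pcdhb10 is highest in control neurons, with a mean of 2.66, and Pcdhb9 lowest in control NPCs, with a mean of 0.0646.

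In NPCs every one of the 10 members had a higher fitted level in both mutant genotypes than in control, and by edgeR's quasi-likelihood test none passed (0 of 10 in each). In deletion NPCs the log2 fold changes ran from 0.33 to 1.85 with a median of 1.41, against a median of 0.04 over all 16783 genes. An adjusted p below 0.05 was reached by 0.00596% of all genes. Of the members, 5 had an unadjusted p below 0.05, as did 3.56% of all genes; DESeq2 and limma-voom called 0 members each, and DESeq2 called 0.554% of all genes. In duplication-deletion NPCs the log2 fold changes ran from 1.46 to 3.30 with a median of 2.49, against 0.01 over all genes, and 0.0119% of all genes passed edgeR. Here 8 members had an unadjusted p below 0.05, as did 2.66% of all genes. DESeq2, run as an alternative on the same counts, called 4 members, Pcdhb3, Pcdhb6, Pcdhb10 and Pcdhb11, and 0.292% of all genes; limma-voom called 0 members. Both comparisons use the same 5 control libraries, so they are not independent of each other.

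Pcdhb11, the member nearest to the distal genes, had the most reads of the 10 in NPCs, not corrected for length, and the smallest p in duplication-deletion NPCs. It was at 10.0, 15.1 and 6.55 CPM in deletion, at 26.0, 47.7 and 31.7 CPM in duplication-deletion and at 1.89, 2.70, 8.17, 4.25 and 0.733 CPM in control NPCs. The 3 duplication-deletion libraries stood above all control libraries, and deletion overlapped control through its replicate 5. The log2 difference from control was 1.58 ± 0.56 in deletion (SE; edgeR adjusted p = 1) and 3.30 ± 0.58 in duplication-deletion NPCs (edgeR adjusted p = 0.304). By DESeq2 the adjusted p of Pcdhb11 was 5.61e-06 in the duplication-deletion comparison.

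Pcdhb2 and Pcdhb3 lie at the far end of the cluster. Pcdhb3 was at 1.88, 1.59 and 0.651 CPM in deletion, at 2.23, 5.06 and 3.23 CPM in duplication-deletion and at 0.767, 0.0867, 0.315, 0.532 and 0.193 CPM in control NPCs. Its duplication-deletion libraries did not overlap control (log2 difference 3.18 ± 0.64, edgeR adjusted p = 0.461), while its deletion libraries did (1.85 ± 0.63, edgeR adjusted p = 1). Pcdhb2 was at 3.09, 1.55 and 1.07 CPM in deletion, at 2.47, 10.2 and 4.55 CPM in duplication-deletion and at 0.524, 0, 3.22, 1.40 and 0.0386 CPM in control NPCs. Control replicate 3 of Pcdhb2 lay above all 3 deletion libraries and above duplication-deletion replicate 2, and the differences were 0.88 ± 1.15 and 2.46 ± 1.15 in deletion and duplication-deletion, with the widest errors among the 10.

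Of the middle genes, Pcdhb6 was at 4.00, 1.35 and 1.30 CPM in deletion, at 2.76, 10.4 and 2.77 CPM in duplication-deletion and at 0.292, 0.468, 1.11, 1.67 and 0.347 CPM in control NPCs. Duplication-deletion replicate 4 stood well above the other 2 libraries of its group, and the group did not overlap control (2.77 ± 0.68, edgeR adjusted p = 0.649). Pcdhb7 was at 3.02, 2.69 and 1.11 CPM in deletion, at 1.67, 8.05 and 3.23 CPM in duplication-deletion and at 0.244, 0.572, 1.77, 1.02 and 0.116 CPM in control NPCs. Both mutant groups of Pcdhb7 overlapped control, since control replicate 3 reached 1.77 CPM (1.61 ± 0.75 in deletion, 2.52 ± 0.75 in duplication-deletion). Pcdhb5 was at 4.09, 1.41 and 1.07 CPM in deletion, at 2.99, 5.20 and 1.97 CPM in duplication-deletion and at 0.840, 1.46, 1.18, 0.748 and 0.270 CPM in control NPCs. For Pcdhb5 the duplication-deletion group lay clear of control (1.91 ± 0.58) and the deletion group did not (1.29 ± 0.58).

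Pcdhb10 was at 2.85, 3.36 and 0.919 CPM in deletion, at 3.47, 9.62 and 1.83 CPM in duplication-deletion and at 0.524, 0.399, 1.23, 0.965 and 0.193 CPM in control NPCs. Its duplication-deletion libraries all exceeded control (2.90 ± 0.66, edgeR adjusted p = 0.577), and deletion replicate 5 fell within the control range (1.85 ± 0.66). The remaining members, Pcdhb4, Pcdhb8 and Pcdhb9, stood at low levels in every NPC group. Pcdhb4 averaged 1.21 ± 0.82, 1.68 ± 0.46 and 0.613 ± 0.360 CPM in deletion, duplication-deletion and control NPCs (SD, n = 3, 3 and 5). Pcdhb8 averaged 0.593 ± 0.257, 1.67 ± 0.98 and 0.478 ± 0.438 CPM in the same groups, and Pcdhb9 averaged 0.258 ± 0.0609, 0.771 ± 0.261 and 0.197 ± 0.137 CPM. The deletion differences of Pcdhb8 and Pcdhb9 were the smallest, 0.33 ± 0.82 and 0.39 ± 0.99, and that of Pcdhb8 changed sign, to -0.077, without deletion replicate 1.

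Counted over the 10 members, every duplication-deletion NPC library exceeded every control library in 7, Pcdhb3, Pcdhb4, Pcdhb5, Pcdhb6, Pcdhb9, Pcdhb10 and Pcdhb11, a pattern that 1.48% of all genes showed. In deletion NPCs this held for 0 members and 1.41% of all genes. Duplication-deletion replicate 4 was the highest of its group in all 10 members. Without it the log2 fold changes over control were 1.74 for Pcdhb2, 1.82 for Pcdhb6, 1.70 for Pcdhb7, 1.21 for Pcdhb8 and 1.99 for Pcdhb10, more than 1.5 times lower in fold than with it, and that of Pcdhb11 was 3.01. Markers of neurons moved with the duplication-deletion result: 6 of the 7 listed neuron markers were in the table, all 6 were higher, 0 passed the edgeR test, and their summed level was 494 to 628 CPM in duplication-deletion, against 261 to 469 CPM in control NPCs. None of the 6 was at 0; Tubb3 averaged 434 ± 53.2 and 294 ± 88.2 CPM and Stmn2 75.8 ± 19.7 and 39.6 ± 10.8 CPM in duplication-deletion and control. In deletion NPCs the neuron markers summed to 220 to 551 CPM and overlapped control. The part of these markers in the result was not tested.

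**Figure D3:**
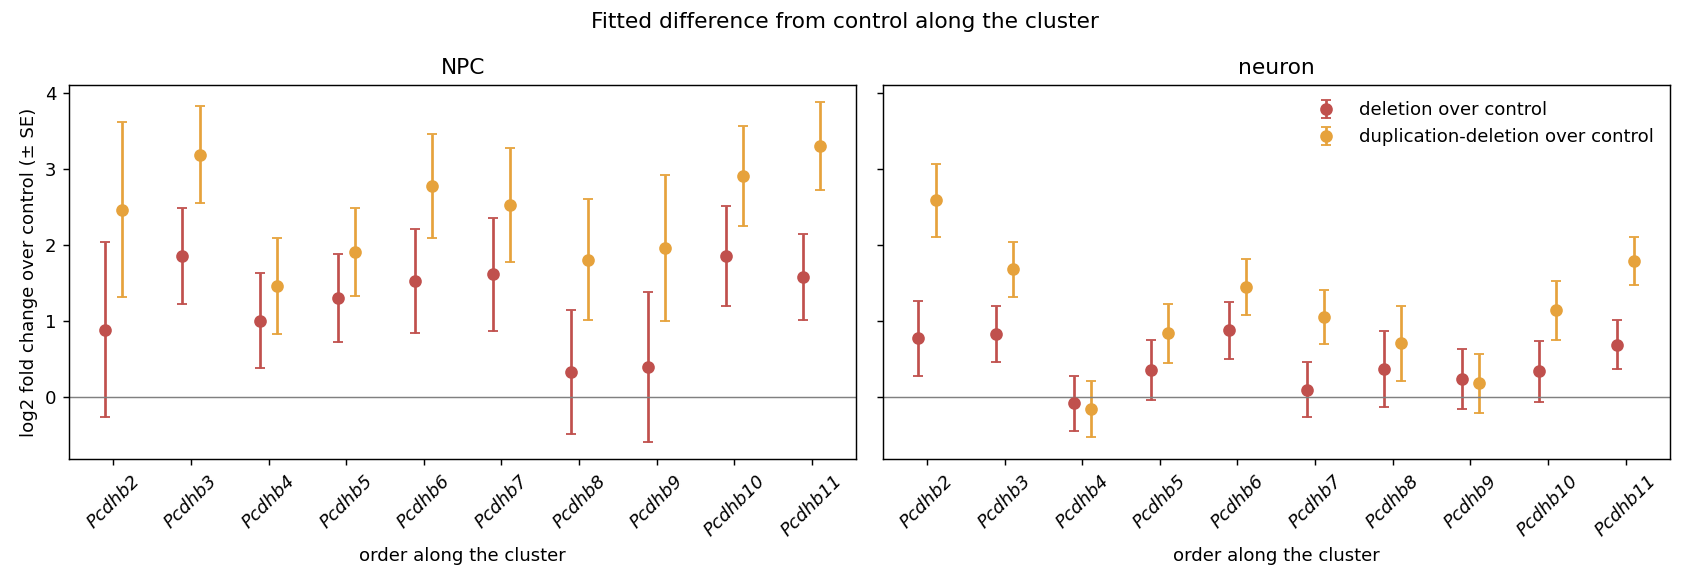
Fitted log2 fold change over control with its SE (vertical axis) of the 10 members in order along the cluster (horizontal axis), for deletion and duplication-deletion, in NPCs (left) and neurons (right). In NPCs all 20 points lie above 0; in neurons Pcdhb4 lies just below 0 in both genotypes, and Pcdhb2 reaches 2.58 in duplication-deletion.

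In duplication-deletion neurons the fitted levels of Pcdhb2, Pcdhb3, Pcdhb6, Pcdhb7, Pcdhb10 and Pcdhb11 were 2.07-fold to 5.99-fold those of control neurons, whereas Pcdhb4 and Pcdhb9 differed from control by less than the spread. By edgeR 0 of 10 members passed, and 0.039% of all 17931 genes did; 6 members and 7.22% of all genes had an unadjusted p below 0.05. The median log2 fold change over the members was 1.09, against -0.05 over all genes. DESeq2 called 4 members, Pcdhb2, Pcdhb3, Pcdhb6 and Pcdhb11, and 0.881% of all genes, and limma-voom called 0 members. In 7 members both duplication-deletion libraries exceeded all 4 control libraries, but with groups of 2 and 4 this held for 10.5% of all genes.

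Pcdhb11 was at 24.8 and 25.7 CPM in deletion, at 54.4 and 56.0 CPM in duplication-deletion and at 24.2, 12.6, 16.0 and 10.9 CPM in control neurons. The 3 genotypes did not overlap, though deletion replicate 1 and control replicate 1 lay close together. Its log2 difference from control was 0.69 ± 0.32 in deletion (SE; edgeR adjusted p = 1) and 1.79 ± 0.32 in duplication-deletion neurons (edgeR adjusted p = 0.24), and the duplication-deletion difference was 3.45-fold.

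Pcdhb2 differed most from control in the duplication-deletion neurons. It was at 4.00 and 3.90 CPM in deletion, at 16.9 and 11.4 CPM in duplication-deletion and at 4.08, 1.32, 2.60 and 1.41 CPM in control neurons. Both duplication-deletion libraries stood far above the rest, and control replicate 1 exceeded both deletion libraries. The log2 difference was 0.77 ± 0.49 in deletion and 2.58 ± 0.48 in duplication-deletion, or 5.99-fold (edgeR adjusted p = 1 and 0.317).

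Pcdhb3 was at 3.47 and 4.21 CPM in deletion, at 6.50 and 7.66 CPM in duplication-deletion and at 1.87, 2.01, 2.53 and 2.34 CPM in control neurons. Its 3 genotypes formed separate, ascending ranges from control to deletion to duplication-deletion (0.82 ± 0.37 in deletion and 1.68 ± 0.36 in duplication-deletion over control). Pcdhb6 was at 6.67 and 5.46 CPM in deletion, at 8.42 and 9.96 CPM in duplication-deletion and at 4.60, 3.05, 3.50 and 2.26 CPM in control neurons. Pcdhb6 ranged in the same way without overlap (0.87 ± 0.37 and 1.44 ± 0.37). Pcdhb10 was at 10.96 and 7.89 CPM in deletion, at 17.8 and 15.7 CPM in duplication-deletion and at 10.4, 8.62, 7.36 and 3.84 CPM in control neurons. Here the duplication-deletion pair stood apart, while deletion replicate 1 lay just above the highest control library and deletion replicate 3 within the control range (1.14 ± 0.39 and 0.33 ± 0.40 over control in duplication-deletion and deletion).

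Pcdhb7 averaged 5.82 ± 1.07, 11.5 ± 0.0822 and 5.52 ± 1.70 CPM in deletion, duplication-deletion and control neurons (SD, n = 2, 2 and 4), with log2 differences from control of 0.09 ± 0.37 and 1.05 ± 0.35. Pcdhb5 averaged 4.83 ± 1.45, 6.86 ± 0.149 and 3.83 ± 1.12 CPM, and Pcdhb8 averaged 2.17 ± 0.45, 2.79 ± 0.62 and 1.70 ± 0.63 CPM in the same groups; the difference of 0.70 ± 0.49 for Pcdhb8 in duplication-deletion was within the spread. Pcdhb4 was at 4.29 and 5.24 CPM in deletion, at 5.44 and 3.79 CPM in duplication-deletion and at 5.99, 5.15, 5.17 and 4.16 CPM in control neurons. Pcdhb9 was at 5.59 and 7.91 CPM in deletion, at 8.18 and 5.04 CPM in duplication-deletion and at 4.30, 6.89, 6.88 and 5.01 CPM in control neurons. For these 2 genes the groups overlapped throughout. The duplication-deletion differences were -0.16 ± 0.37 for Pcdhb4 and 0.18 ± 0.39 for Pcdhb9 (log2, SE), and their signs changed when single libraries were left out.

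In deletion neurons edgeR called 0 members and 0.0% of all genes, 1 member (Pcdhb6) and 3.63% of all genes had an unadjusted p below 0.05, and DESeq2 (0.357% of all genes) and limma-voom called 0 members. The median log2 fold change was 0.36, against -0.03 over all genes. Pcdhb3, Pcdhb6 and Pcdhb11 had both deletion libraries above all control libraries, which 4.4% of all genes did.

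Marker lists of other cells also differed between the neuron groups. Midbrain floor plate markers summed to 436 to 577 CPM in duplication-deletion and 233 to 408 CPM in control neurons. Endothelial markers summed to 24.2 to 45.7 CPM and 3.78 to 17.6 CPM in the same groups, with 5 of 5 in the table and Cldn5 at 0 in duplication-deletion. Endoderm markers summed to 144 and 144 CPM in duplication-deletion, against 33.5 to 120 CPM in control, which is nearly all Foxa1, a factor that floor plate cells also express; Afp was at 0 in both. Oligodendrocyte markers ran the other way, at 17.3 to 29.3 CPM in duplication-deletion, against 32.5 to 62.5 CPM in control. In deletion neurons the dopaminergic markers summed to 186 to 233 CPM, against 484 to 624 CPM in control, and the neural crest markers to 2.65 to 5.58 CPM, against 7.08 to 12.2 CPM. The summed neuron markers overlapped between the genotypes at this stage. In all these lists 0 markers passed the edgeR test, and their part in the differences of the beta genes was not tested.

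Set directly against each other, deletion cells had lower fitted levels of most members than duplication-deletion cells, and none of these differences passed the test. In NPCs all 10 differences were negative, from -1.72 ± 0.66 for Pcdhb11 to -0.45 ± 0.71 for Pcdhb4 (log2, SE), with a median of -1.29, against 0.02 over all genes. EdgeR called 0 members and 0.0238% of all genes, 1 member (Pcdhb11) and 4.01% of all genes had an unadjusted p below 0.05, and DESeq2 (0.602% of all genes) and limma-voom called 0 members. Every deletion library lay below every duplication-deletion library in Pcdhb3, Pcdhb8, Pcdhb9 and Pcdhb11, as in 3.75% of all genes. The deletion NPCs carry replicate numbers 1, 3 and 5 and the duplication-deletion NPCs 2, 4 and 5, so only number 5 is shared. Genotype and anything tied to the replicate number are therefore largely confounded in this comparison. Fibroblast or mesenchymal markers, 6 of 6 in the table and none at 0, also lay lower in deletion NPCs, at 67.9 to 200 CPM in sum, against 366 to 529 CPM in duplication-deletion; control NPCs spanned 166 to 562 CPM. Their part in the difference was not tested.

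In neurons the differences between deletion and duplication-deletion ran from -1.81 ± 0.59 for Pcdhb2 to 0.07 ± 0.42 for Pcdhb4, with a median of -0.69 and 8 of 10 negative. EdgeR called 0 members and 0.0335% of all genes, 2 members, Pcdhb2 and Pcdhb11, and 8.85% of all genes had an unadjusted p below 0.05, and DESeq2 (1.37% of all genes) and limma-voom (0.0112%) called 0 members. In 7 members both deletion libraries lay below both duplication-deletion libraries, but so did 21.5% of all genes. The deletion neurons carry replicate numbers 1 and 3 and the duplication-deletion neurons 2 and 4. Genotype and anything tied to the replicate number therefore cannot be told apart here. Several marker sums also lay lower in deletion neurons without overlap: the dopaminergic sum was 186 to 233 CPM in deletion, against 438 to 1083 CPM in duplication-deletion, the floor plate sum 248 to 388 against 436 to 577 CPM, the endothelial sum 4.21 to 4.73 against 24.2 to 45.7 CPM, the endoderm sum 48.3 to 88.8 against 144 to 144 CPM and the neural crest sum 2.65 to 5.58 against 11.7 to 15.7 CPM. The oligodendrocyte sum, at 35.4 to 43.3 against 17.3 to 29.3 CPM, and the microglia sum, at 0.833 to 0.841 against 0.204 to 0.748 CPM, lay higher in deletion. Their part in the differences was not tested.

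The fitted differences from control were smaller in neurons than in NPCs for most members, and the test of that change found 0. In a joint fit of 28 libraries and 19996 genes, the deletion effect in neurons minus that in NPCs had a median of -0.92 over the members, from -1.52 to 0.04 on the log2 scale, and the duplication-deletion effect a median of -1.48, from -1.77 to 0.12. EdgeR called 0 members in both (0.005% and 0.0% of all genes), with adjusted p-values of at least 0.962, 0 members had an unadjusted p below 0.05 (3.1% and 5.02% of all genes), and DESeq2 (0.04% and 0.17% of all genes) and limma-voom called 0 members. A smaller effect in neurons is therefore not shown.

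The proximal genes took a larger part of the beta cluster's reads in duplication-deletion cells. Of all counts from Pcdhb1 to Pcdhb22, the 10 members held 17.1%, 12.4% and 15.7% in deletion NPCs, 28.5%, 32.8% and 29.0% in duplication-deletion NPCs and 9.85% to 21.6% in control NPCs. In neurons they held 17.8% and 22.2% in deletion, 33.9% and 32.6% in duplication-deletion and 18.7% to 24.1% in control. At both stages the duplication-deletion libraries lay above all others, and deletion lay within or near control. In NPCs this separation rests on Pcdhb11, which gave 46.7% to 59.9% of the members' counts in duplication-deletion. With Pcdhb11 left out of the members, the shares of duplication-deletion and control NPCs overlap. These shares are a description without a test, and they do not depend on the scaling of the libraries.

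In CPM, the summed level of the members was 13.6 to 31.6 in deletion, 44.4 to 102 in duplication-deletion and 2.74 to 18.6 in control NPCs. The 11 distal genes summed to 73.3 to 209, 111 to 209 and 25.1 to 67.7 CPM in the same groups. The distal sums of deletion and duplication-deletion NPCs overlapped, while their proximal sums did not. The proximal separation rests on Pcdhb11: with that gene left out, the proximal sums of both mutant NPC groups overlap too. In neurons the proximal sum was 70.5 and 75.3 CPM in deletion, 131 and 138 CPM in duplication-deletion and 38.7 to 71.3 CPM in control. The distal sum was 263 and 325, 270 and 271, and 122 to 244 CPM in deletion, duplication-deletion and control neurons.

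Pcdhb11 alone gave a large share of the members' own counts, which are not corrected for length. Its share was 31.7% to 50.9% in deletion, 46.7% to 59.9% in duplication-deletion and 26.8% to 43.9% in control NPCs. In neurons it was 34.2% to 35.2% in deletion, 39.3% to 42.7% in duplication-deletion and 25.4% to 33.9% in control. The shares of Pcdhb9 and Pcdhb4 were lower in duplication-deletion neurons: Pcdhb9 held 4.88% ± 1.46, against 11.4% ± 3.6 in control, and Pcdhb4 held 3.41% ± 0.73, against 9.79% ± 1.03 (SD, n = 2 and 4). These are shares of a total that was itself larger in duplication-deletion neurons, and the CPM of neither gene differed from control beyond the spread.

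**Figure D4:**
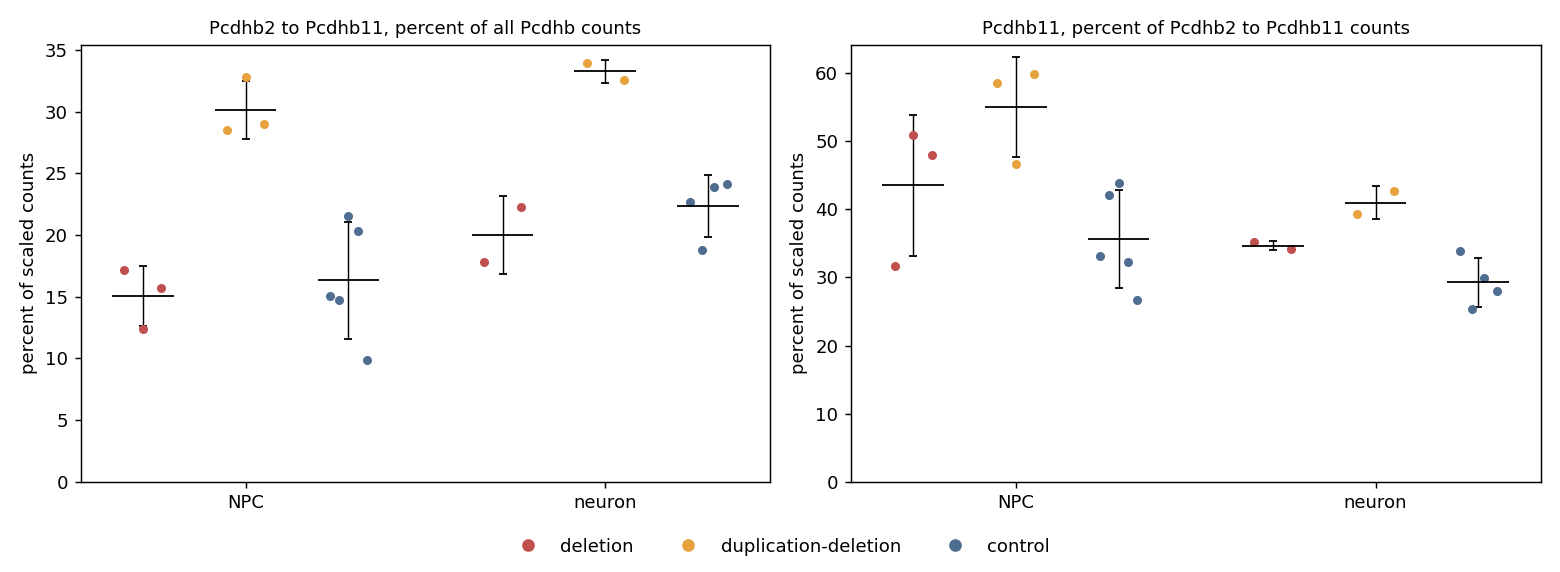
Left, percent of all Pcdhb counts that came from Pcdhb2 to Pcdhb11; right, percent of the Pcdhb2 to Pcdhb11 counts that came from Pcdhb11; points are libraries, bars means and whiskers SD, with deletion, duplication-deletion and control from left to right in each stage. On the left the duplication-deletion libraries lie at 28.5 to 33.9 percent, above every deletion and control library.

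The other clustered protocadherins are given by list, with counts and medians for some lists and comparisons only. Differences between lists were not tested. Of the 11 distal beta genes, all were higher and 0 passed the edgeR test in both mutant NPC groups, with medians of 1.81 in deletion and 1.76 in duplication-deletion (log2). Between deletion and duplication-deletion NPCs their median was -0.04, against -1.29 for the proximal genes. The 2 distal genes with the smallest p in deletion NPCs were Pcdhb19, at 24.6 ± 10.0 CPM in deletion and 8.06 ± 1.55 CPM in control, and Pcdhb17, at 24.0 ± 10.5 and 5.61 ± 2.47 CPM (edgeR adjusted p = 0.263 for both). In neurons the distal medians were 0.46 in deletion and 0.51 in duplication-deletion. Pcdhb1, at the start of the cluster, was at 0 in all ESC and NPC libraries and at most at 0.35 CPM in neurons.

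Alternate alpha genes, 12 of 13 tested in NPCs, had medians of 1.37 in deletion and 3.00 in duplication-deletion NPCs, with 0 past the edgeR threshold; Pcdha5 and Pcdha11 had the smallest p in deletion (2.49 ± 0.95 and 1.20 ± 0.52, edgeR adjusted p = 1 for both). In duplication-deletion neurons the alpha median was 0.12, against 1.09 for the proximal beta genes. Gamma A genes (12) had a median of -0.79 in deletion and 0.40 in duplication-deletion NPCs; Pcdhga7 was at -2.27 ± 0.45 and Pcdhga3 at 1.63 ± 0.33 in deletion (edgeR adjusted p = 0.277 and 0.297). Among the 7 gamma B genes, Pcdhgb2 fell in deletion NPCs, to 3.40 ± 0.65 CPM, against 35.6 ± 14.2 CPM in control (-3.37 ± 0.40, edgeR adjusted p = 0.0235). This was the single gene of the whole table that passed in that comparison. No gene passed there (0 genes) by limma-voom, or by edgeR without control NPC replicate 1, control NPC replicate 3, deletion NPC replicate 1 or deletion NPC replicate 5, so the call of Pcdhgb2 rests on each of these libraries. The 5 C-type genes, which neurons express more constantly than the alternate isoforms, had a median of 0.38 in deletion NPCs and 0 passed; Pcdhac2 and Pcdhac1 had the smallest p (0.76 ± 0.45 and 1.67 ± 1.34).

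Genes next to the protocadherin clusters on chromosome 18 had medians near 0 throughout. Of the 20 listed neighbours 17 were tested in NPCs and in neurons, 0 passed the edgeR test, and their medians were 0.16 in deletion and 0.07 in duplication-deletion NPCs, and 0.03 and -0.05 in the same genotypes in neurons. Of 25 listed regulators of the clusters, among them CTCF, cohesin subunits and their loaders and DNA methyltransferases, 24 were tested and 0 passed in any comparison of a mutant with control. Dnmt3a, a DNA methyltransferase, and Smc1a, a cohesin subunit, had the smallest p in deletion NPCs (0.54 ± 0.21 and 0.39 ± 0.21, edgeR adjusted p = 1 for both). In control cells most regulators fell from NPCs to neurons, with 3 higher and 15 lower of 24 by edgeR and a median of -0.92. Of all 18365 genes tested at that step, 4258 were higher and 3765 lower by edgeR, with a median of 0.10.

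The members varied together among libraries. Over the 11 NPC libraries the 45 pairs of members had a median Pearson correlation of log2 CPM of 0.815, from 0.347 to 0.942. Over the 8 neuron libraries the median was 0.760, from -0.395 to 0.984. Pcdhb4 and Pcdhb9 stood apart in neurons, with median correlations with the other members of 0.0606 and 0.119, whereas the other 8 had medians of 0.722 to 0.889. These libraries share genotype groups and a scaling, so the values are a description and carry no p.

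Likeness of other genes to the mean log2 CPM of the members was ranked in the same way. Over all 28 libraries, among 14656 genes with a mean of at least 1 CPM, the first 5 were Pcdhb12 (r = 0.978), Pcdhb15 (0.969), Pcdhb20 (0.968), Scg2 (0.967), which encodes a secretory granule protein, and Actl6b (0.967), a neuronal subunit of a chromatin remodelling complex. Of the first 25, 8 were clustered protocadherins. Within the 11 NPC libraries, all of 1 labelled stage, 14 of the first 25 of 13382 genes were clustered protocadherins. The first 5 were Pcdhb14 (0.953), Zbtb49 (0.934), Pcdhb18 (0.920), 9430083A17Rik (0.919) and Pcdhb13 (0.914). The share of clustered protocadherins among all genes ranked was not counted. These NPC libraries still differed in their summed neuron markers, from 220 CPM in a deletion library to 628 CPM in a duplication-deletion library.

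The authors' deposited table, made with DESeq2 after a filter on TPM whose threshold the labels do not give, lists fewer members than were tested here. For NPCs it lists 5 members in the deletion comparison with 0 past an adjusted p of 0.05 (0.849% of all genes listed with an adjusted p), and 8 in the duplication-deletion comparison with 3 past it (0.372%). The 3 in the authors' deposited table are Pcdhb3 (3.21, adjusted p = 0.00374), Pcdhb10 (2.93, adjusted p = 0.0135) and Pcdhb6 (2.79, adjusted p = 0.0359). For neurons the authors' deposited table lists 9 members in each comparison, with 0 past the threshold in deletion (0.28%) and 2 in duplication-deletion (1.18%), Pcdhb2 (2.58, adjusted p = 0.000854) and Pcdhb3 (1.68, adjusted p = 0.00946). For these genes the edgeR fits gave 3.18, 2.90 and 2.77 in NPCs and 2.58 and 1.68 in neurons. Pcdhb11 is among the members with no row in it.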

How the data were processed

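Stranded total RNA libraries were read as paired ends, per the labels. The authors deposited expected counts per gene, neither scaled nor log-transformed; the submitters' processing notes name STAR 2.6.0c, RSEM 1.3.0 and the build mm9. The authors' deposited table gives a log2 fold change with its standard error, a p-value and adjusted p-value, a mean signal and a test score per gene for each mutant against control, made with DESeq2 1.22.2 per those notes. Its design, and whether counting used strand, are not given in the sources used here.

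The 92 spike-in entries were dropped and the remaining values rounded to whole numbers. EdgeR 4.0.16 (R 4.3.3) fitted the 3 genotypes of a stage together by robust quasi-likelihood with TMM scaling after filterByExpr by group; control stages and the difference between stages were fitted apart. Tests were two-sided, with Benjamini-Hochberg adjustment over all genes tested and a threshold of 0.05. CPM used a joint TMM scaling of 28 libraries, log2 CPM a prior count of 2. The alternatives were DESeq2 1.42.0, limma-voom (limma 3.58.1), other scaling, no filter, a replicate block, and libraries left out.

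Depth, 5578135 to 78814032 counts per library, limits the low members most; intervals and floors (95%, 3 counts) cover counting error only. No library was a copy of another: over 33 pairs of replicates, chi-square divided by its degrees of freedom was at least 66.9. Same-numbered libraries correlated at 0.224 to 0.692 in ESCs (9 of 9 pairs above 0.1), where no member was tested. They correlated at -0.031 to 0.481 in NPCs, 0.0819 to 0.495 in neurons and -0.15 to 0.355 among control stages. Because some pairs showed little or no correlation, the numbers were not taken to pair samples. Others did correlate, and the replicate block, run as an alternative, changed some calls, given below. The edgeR script was tested on simulated data. A description label of duplication-deletion NPCs names the deletion only; title and genotype name both and were used. All 10 members are described. Other lists are given by counts or medians, with up to 3 genes past the threshold, or 2 with the smallest p, in deletion NPCs. The 5 genes most like the members are named. Members and lists were chosen with earlier results of these data known, and the series title names the gene family.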

Additional observations from a re-analysis of the deposited data

Results flagged for a closer look

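Pcdhb4 in control NPC replicate 4 stood at 1.24 CPM, apart from the other 4 control NPC libraries, which ran from 0.364 to 0.540 CPM. The gap to the nearest library made up 0.799 of the range of the group, above the critical value of 0.71. It was 1 of 20 groups of values looked at in this way, and chance alone would give about 1 in 20. Without that library, Pcdhb8 passed the edgeR test between control neurons and control NPCs (adjusted p = 0.0446), and the call of Pcdhb4 in that comparison stayed.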

How the results depend on the processing

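Under edgeR with other scaling, without the low-count filter, without the shallow libraries (ESC replicate 3 and NPC replicate 5), and with limma-voom, 0 members passed in any comparison between genotypes in NPCs or neurons. DESeq2 called 4 members in duplication-deletion NPCs and 4 in duplication-deletion neurons. Each library left out in turn gave 0 members in the comparisons between genotypes in NPCs and neurons and in both interactions (no member was tested in ESCs), 6 to 9 in control NPCs over ESCs and 7 to 9 in control neurons over NPCs. The replicate block called 2 members in duplication-deletion neurons (Pcdhb2 and Pcdhb11; 40 of 17931 genes) and 5 in control neurons over NPCs (Pcdhb3, Pcdhb4, Pcdhb9, Pcdhb10 and Pcdhb11; 7128 of 18365 genes; Pcdhb5, Pcdhb6 and Pcdhb7 had adjusted p = 0.0504, 0.0949 and 0.0502), and did not call Pcdhb9 in control NPCs over ESCs (0.0832); samples there share only a number, and 5 of 11 NPC, 5 of 8 neuron and 5 of 11 control libraries correlated best with their own number. With library totals in place of TMM, the summed level of the members was 82.2 CPM in deletion and 155 CPM in duplication-deletion neurons, against 72.9 and 135.

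With the block, log2 differences changed sign for Pcdhb7 in deletion neurons (-0.0052), Pcdhb4 between deletion and duplication-deletion neurons (-0.15), and the interactions of Pcdhb8 with deletion (-0.92; limma-voom -0.45) and Pcdhb2 with duplication-deletion (-1.17; limma-voom -1.37). With single libraries left out, values that crossed 0 ranged from -0.077 to 0.88 for Pcdhb8 in deletion NPCs; in deletion neurons from -0.24 to 0.063 for Pcdhb4, -0.11 to 0.30 for Pcdhb7 and -0.041 to 0.48 for Pcdhb9; in duplication-deletion neurons from -0.45 to 0.075 for Pcdhb4 and -0.22 to 0.48 for Pcdhb9; between deletion and duplication-deletion neurons from -0.16 to 0.38 for Pcdhb4 and -0.25 to 0.47 for Pcdhb9; for the deletion interaction from -1.19 to 0.44 for Pcdhb2, -1.14 to 0.098 for Pcdhb6, -0.52 to 0.45 for Pcdhb8 and -0.52 to 0.17 for Pcdhb9; and for the duplication-deletion interaction from -0.94 to 0.84 for Pcdhb2. The cause was not tested for any of these.

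Over all genes, edgeR, DESeq2 and edgeR with the block called 1, 93 and 11 in deletion NPCs, 2, 49 and 2 in duplication-deletion NPCs, 4, 101 and 2 between them, 0, 64 and 13 in deletion neurons, 7, 158 and 40 in duplication-deletion neurons, 6, 246 and 21 between those, and 0, 7 and 9 in deletion, 0, 4 and 7 in duplication-deletion ESCs and 0, 18 and 13 between them; for the deletion interaction they called 1, 8 and 1, and for the duplication-deletion interaction 0, 34 and 1. Without the filter edgeR called 14 in duplication-deletion neurons and 26 between the mutant neurons, with DESeq2 size factors 1 in duplication-deletion NPCs, and limma-voom called 0 in deletion NPCs, 1 in duplication-deletion NPCs, 1 between the mutant NPCs, 2 between the mutant neurons and 2 for the deletion interaction. Of the log2 differences of single members, 1690 kept direction and call, 39 changed sign, 16 gained a call and 15 lost one. Few reads limit Pcdhb9 in NPCs most, with 33 counts over the deletion libraries.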
